A study of Sus scrofa with 6 samples.

Results

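The vascular endothelial growth factor (VEGF) ligands and receptors and the angiopoietin-like protein ANGPTL4 were followed in aortic valve leaflets of male and female pigs. Every probe set was taken that the annotation of the array, or the study's list of significant genes, names for VEGFA, VEGFB, VEGFC, FLT1, KDR, FLT4 or ANGPTL4. This gave 13 of the 24123 probe sets on the array, for 5 of the 7 genes (the annotation names 6765 genes in all): 4 for VEGFA, 1 for VEGFB, 3 for FLT1, 3 for KDR and 2 for ANGPTL4. FLT4 and VEGFC were not analysed here, since no probe set carries their names.

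The males were castrated, the females were not described further, and all pigs were of mixed breed, 5 months of age and about 90 kg. Hearts came from a commercial slaughterhouse, leaflets were removed within 5 h of death, and their endothelium was scraped off before RNA isolation. Leaflet RNA of 3 males and of 3 females was read on Affymetrix GeneChip Porcine Genome Arrays, each array holding another pig, and castration means that neither sex had testes. Values are log2 expression values from RMA, which subtracts background, equalizes the distributions of the arrays and condenses the probes of a set into 1 value, and 1 unit is a doubling.

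VEGFA is the main ligand of this family and binds both FLT1 (VEGF receptor 1) and KDR (VEGF receptor 2), while VEGFB binds FLT1. KDR carries most of the proliferative and migratory signal in endothelial cells, and FLT1, which binds VEGFA tightly but signals weakly, also acts as a trap for it. ANGPTL4 is a secreted inhibitor of lipoprotein lipase that is induced by fatty acids, glucocorticoids and low oxygen and that also acts on vessels. Healthy aortic valve leaflets are largely without vessels, and their interstitial cells are covered by a single layer of endothelium.

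Across the members, KDR was higher and ANGPTL4 was lower in male leaflets, VEGFB and 1 probe set of VEGFA differed little, and FLT1 lay between. The KDR probe set with signal stood 5.16-fold higher in the males, a log2 fold change of 2.37 with a standard error of 0.34, and both ANGPTL4 probe sets were lower in males, by 2.77-fold and 2.25-fold. Among the most variable probe sets by the coefficient of variation (CV, the SD divided by the mean), KDR rose and 1 ANGPTL4 probe set fell. Over all probe sets, none of the 13 passed.

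To be called, a probe set needed an adjusted p (limma, Benjamini-Hochberg) under 0.05 and had to differ by 2-fold or more. Over the 23999 probe sets other than array controls, limma called 0 of 13 members, against 0.304% of all probe sets (0.167% higher and 0.138% lower in males), and 7 of 13 had an unadjusted p under 0.05, against 16.9%. The CV filter retained the most variable 10% of the array, 2412 probe sets, and 5 of the 13 members were among them. Of these 5 members 2 were called, 1 higher and 1 lower in males, against 7.59% of the probe sets retained (4.6% higher and 2.99% lower). This filter favors probe sets that separate the sexes, and both comparisons are therefore given. The methods name a CV filter but describe it as removing values that varied between replicates, which is not what retaining the most variable probe sets does. Of the 13 members 6 had the higher mean in males, against 49.1% of all probe sets. The sexes did not overlap at 7 of the 13, 4 of them higher and 3 lower in males, against 22.4% of all probe sets (11.1% higher and 11.4% lower). Of the 9 members with a mean over the 25th percentile of the array 6 did not overlap, against 25.4% of such probe sets. The study chose its list of significant genes on these same arrays, so the directions of KDR and ANGPTL4, which are on it, are not independent evidence. The KDR probe set Ssc.25045.1.S1_at became a member only through that list. Its place among the members called, with an unadjusted p under 0.05 or without overlap was thus favored by that choice. These counts are therefore a description and not independent evidence.

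Array medians lay between 7.33 and 7.38, correlations between arrays ran from 0.987 to 0.993 within a sex and from 0.972 to 0.987 across the sexes, and 6 of 6 arrays matched their stated sex by sex-linked genes. The 25th percentile of all values on the 6 arrays, controls included, was 5.52, and 9 of the 13 members had a mean above it. Of 21 listed markers of interstitial cells and fibroblasts, 16 were measured and all 16 lay above this percentile, with array means of 12.36 to 12.63 in males and 12.58 to 12.74 in females. Of the measured endothelial markers 27 of 28 lay above the percentile, whereas 6 of 9 cardiomyocyte markers lay below it. Since 18067 of the 23999 probe sets other than controls also had a mean above it, this alone does not show that endothelial RNA remained. The endothelial genes PECAM1, VWF, CDH5, TEK and TIE1 each read above the median of all values (7.36) on every array. PECAM1 read 11.83 to 13.69, so transcripts of these genes were present in the scraped leaflets. The study stained parallel leaflets for the clotting factor VWF and reported that the scraping had succeeded. How much endothelial RNA was left was not tested.

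**Figure D1:**
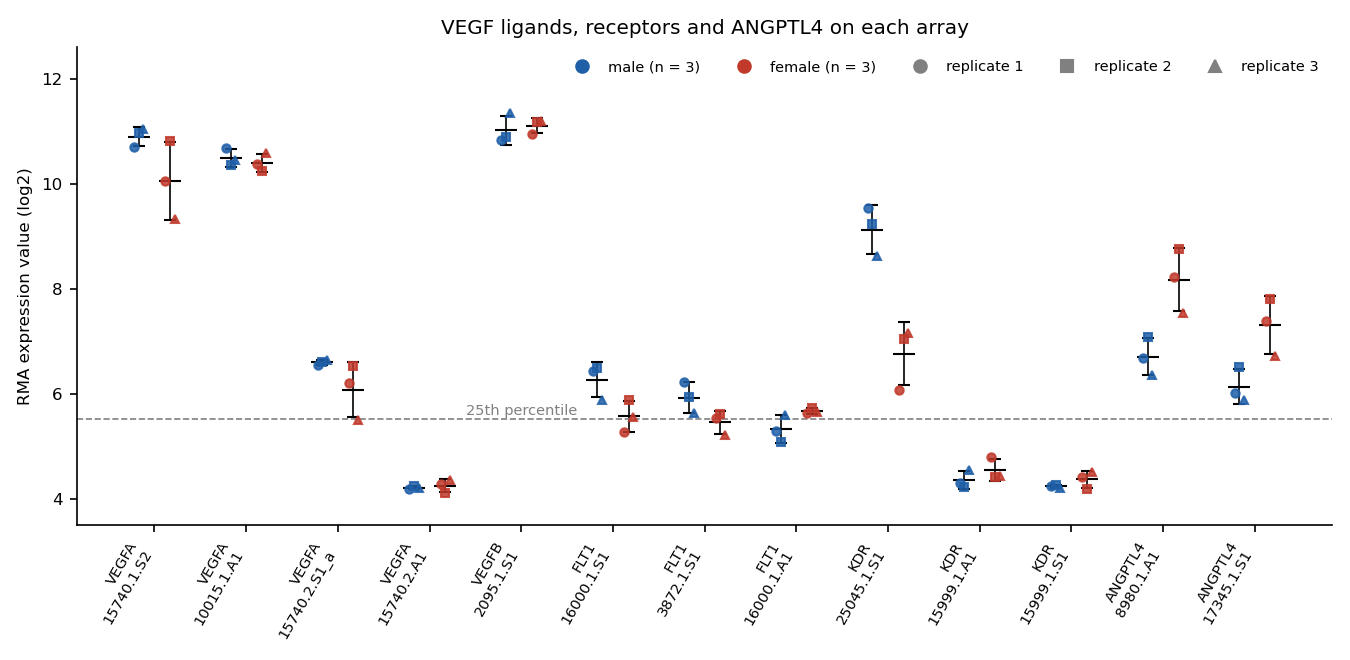
The log2 RMA value of each of the 13 member probe sets is plotted for the 3 male (blue) and 3 female (red) arrays. Marker shape gives the replicate, black bars give mean ± SD, and the dashed line is the 25th percentile of all array values (5.52). Probe set names are shortened by their common start and end. At KDR 25045.1.S1 the male arrays (8.62 to 9.53) lie above the female arrays (6.07 to 7.16), and at both ANGPTL4 probe sets they lie below.

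Among the ligands, VEGFA gave different sex differences at different probe sets. At Ssc.15740.1.S2_at the values were 10.69, 10.96 and 11.03 in males and 10.05, 10.80 and 9.32 in females. The sexes overlapped there because female replicate 2 lay above male replicate 1. Male leaflets were on average 1.79-fold higher (log2 fold change 0.84, 95% interval 0.03 to 1.64), which did not pass (adjusted p = 0.283 from limma over all probe sets). Female replicate 3 was the lowest array, and without it the log2 fold change was 0.47.

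The second VEGFA probe set of high signal, Ssc.10015.1.A1_at, did not show this spread. Its values were 10.67, 10.35 and 10.45 in males and 10.36, 10.23 and 10.57 in females, and the sexes overlapped fully. The log2 fold change of 0.10 had a 95% interval of -0.22 to 0.42, so a 2-fold difference in either direction lay outside the interval. The order of the arrays also differed, since female replicate 3, the lowest array at the first probe set, was the second highest here. The first and second VEGFA probe sets correlated at r = -0.34 over the 6 arrays, which share their RNA and normalization.

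The remaining VEGFA probe sets had lower signal. Ssc.15740.2.S1_a_at followed the first one (r = 0.98 over the 6 arrays), with values of 6.54, 6.61 and 6.64 in males and 6.21, 6.52 and 5.50 in females. All males lay above all females by a gap of 0.02, less than the spread of either sex, and the log2 fold change of 0.52 did not pass (adjusted p = 0.336 from limma over all probe sets and 0.324 with the CV filter). Ssc.15740.2.A1_at lay under the 25th percentile on all 6 arrays, between 4.11 and 4.35, and carries no usable level. The largest contrast among the VEGFA probe sets above that percentile was between the first and the second, whose log2 fold changes differed by 0.74 (exact permutation p = 0.2, two-sided). Without female replicate 3 this contrast was 0.28, and without female replicate 2 it was 1.19. The 0.52 of Ssc.15740.2.S1_a_at was 0.23 without female replicate 3. VEGFA may therefore be read as 1.79-fold higher or as little different in males according to the probe set, and the arrays do not settle which.

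VEGFB, the ligand that binds FLT1 and not KDR, had its single probe set (Ssc.2095.1.S1_at) at 10.83, 10.88 and 11.33 in males and at 10.95, 11.18 and 11.19 in females. The sexes overlapped, and the highest and the lowest array were both male. The log2 fold change was -0.09, and its 95% interval of -0.47 to 0.29 excludes a 2-fold difference in either direction (adjusted p = 0.819 from limma over all probe sets).

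Of the receptors, KDR was read above the 25th percentile by 1 of its 3 probe sets, Ssc.25045.1.S1_at. This probe set has its name from the list of significant genes and not from the array annotation used here. It read 9.53, 9.23 and 8.62 in males and 6.07, 7.05 and 7.16 in females. Every male array exceeded every female array, and the gap of 1.46 between the lowest male and the highest female was wider than the spread within either sex. Means were 9.12 ± 0.46 (SD, n = 3) in males and 6.76 ± 0.60 (SD, n = 3) in females, and the log2 fold change of 2.37 had a 95% interval of 1.57 to 3.16. It ranked 91 of 23999 probe sets by p. KDR rose with the CV filter (adjusted p = 0.00686 from limma) and narrowly failed over all probe sets (adjusted p = 0.0507 from limma).

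The KDR call held with the CV filter in every alternative run, leaving out any one array included (log2 fold changes 2.02 to 2.62, adjusted p from 0.000363 to 0.0197 from limma). Over all probe sets its adjusted p ranged from 0.0309 to 0.180 across the alternatives, and it was called without male replicate 3, with medians of the arrays set equal, and with an intensity trend in the variance.

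Both probe sets that the array annotation names for KDR lay under the 25th percentile on all 6 arrays. Ssc.15999.1.A1_at read 4.29, 4.23 and 4.55 in males and 4.79, 4.42 and 4.42 in females, and Ssc.15999.1.S1_at read 4.24, 4.26 and 4.21 in males and 4.41, 4.19 and 4.51 in females. The sexes overlapped at both. Their log2 fold changes of -0.19 and -0.13 say nothing about KDR at this signal. On these arrays the sex difference of KDR is thus read from 1 probe set and depends on the name given to it in that list. The study also measured KDR and ANGPTL4 by quantitative PCR, in the same pigs and in further pigs. It reported that the array fold changes largely matched those of the PCR. The PCR values were not used here.

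FLT1, the decoy receptor for VEGFA, was read by 2 probe sets just above the 25th percentile and 1 just below it. Ssc.16000.1.S1_at read 6.43, 6.50 and 5.88 in males and 5.28, 5.88 and 5.55 in females. Male replicate 3 and female replicate 2 were almost level, with a gap of 0.0020 between the sexes. Males were 1.62-fold higher (log2 fold change 0.70, 95% interval 0.20 to 1.20), which passed neither over all probe sets (adjusted p = 0.194 from limma) nor with the CV filter (adjusted p = 0.178 from limma).

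The second FLT1 probe set, Ssc.3872.1.S1_at, had the same direction. It read 6.22, 5.93 and 5.63 in males and 5.53, 5.61 and 5.21 in females, again with male replicate 3 beside female replicate 2 at the border. Its log2 fold change of 0.47 (95% interval 0.05 to 0.90) did not pass (adjusted p = 0.260 from limma over all probe sets). Both probe sets correlated at r = 0.83 over the 6 arrays.

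The third FLT1 probe set went the other way. Ssc.16000.1.A1_at read 5.29, 5.08 and 5.60 in males and 5.64, 5.73 and 5.65 in females. This log2 fold change was -0.35 (95% interval -0.69 to -0.01, adjusted p = 0.291 from limma over all probe sets). The sexes did not overlap at this probe set, but its mean lay under the 25th percentile. It differed from the other FLT1 probe sets by 1.05 and 0.82 in log2 fold change (exact permutation p = 0.1, two-sided, the smallest that 3 against 3 arrays allow, and 0.26 adjusted over the 13 pairs of probe sets of one gene).

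**Figure D2:**
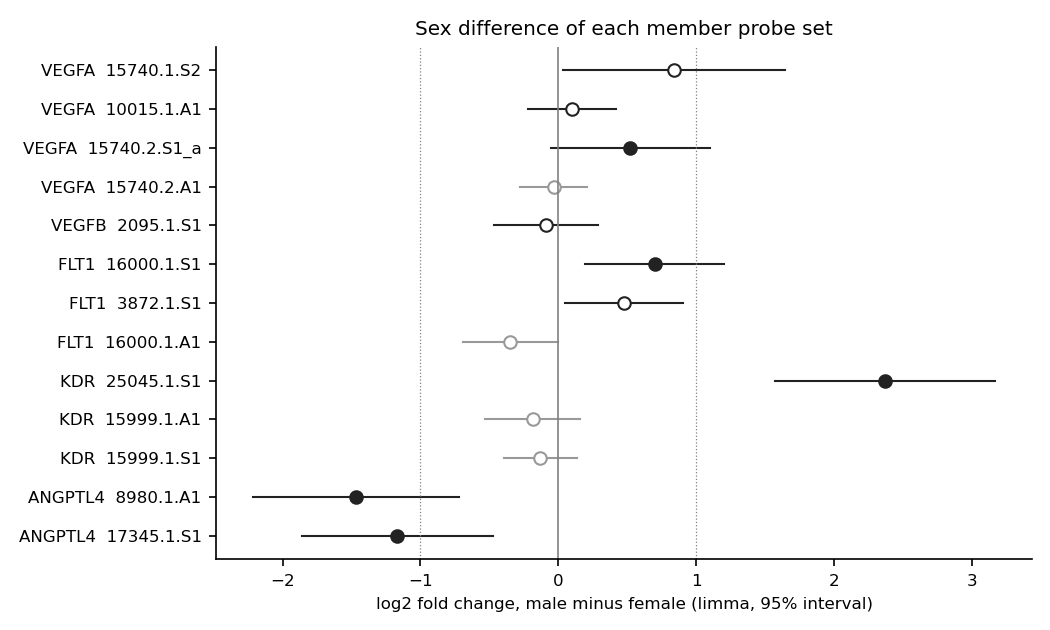
The log2 fold change (male minus female) of each member probe set is plotted with its 95% interval from limma over all probe sets. Filled circles were kept by the CV filter, grey marks have a mean under the 25th percentile, and dotted lines stand at a 2-fold difference. The interval of KDR 25045.1.S1 (1.57 to 3.16) is the only one that lies wholly beyond 2-fold.

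ANGPTL4 was lower in males at both of its probe sets. Ssc.8980.1.A1_at read 6.68, 7.07 and 6.36 in males and 8.22, 8.75 and 7.54 in females. All males lay below all females, with a gap of 0.47. Means were 6.70 ± 0.36 (SD, n = 3) and 8.17 ± 0.61 (SD, n = 3), and the log2 fold change was -1.47 (standard error 0.32, 95% interval -2.21 to -0.72). This probe set fell with the CV filter (adjusted p = 0.0458 from limma) and did not pass over all probe sets (adjusted p = 0.119 from limma).

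The other ANGPTL4 probe set, Ssc.17345.1.S1_at, is not on the study's list. It read 6.02, 6.52 and 5.87 in males and 7.38, 7.81 and 6.71 in females, in the same order of arrays as the first (r = 0.995 over the 6 arrays). The sexes did not overlap, with a gap of 0.20 between the highest male and the lowest female. Its log2 fold change of -1.17 (95% interval -1.86 to -0.48) passed neither over all probe sets (adjusted p = 0.151 from limma) nor with the CV filter (adjusted p = 0.0702 from limma). Since both read the RNA of the same 6 pigs, they are not independent evidence on the sexes.

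The ANGPTL4 call with the CV filter was lost on leaving out any one array other than female replicate 3. With each array left out in turn, the log2 fold change stayed between -1.78 and -1.18, while the adjusted p from limma ranged from 0.0386 to 0.112. Without female replicate 2, the array with the highest ANGPTL4 value, the log2 fold change was -1.18 and the adjusted p 0.0824 from limma. Interstitial cell and fibroblast markers also leaned lower in males, at 14 of 16 measured genes and a median of -0.29, with array means that overlapped (12.36 to 12.63 in males and 12.58 to 12.74 in females). The largest difference of that list was upward, at S100A4 (1.20). Of the adipocyte markers 4 of 5 were lower and FABP4 was higher (0.94). Their array means were 7.21 to 7.57 in males and 7.004 to 7.72 in females, and averaged 7.42 and 7.38. The fat cell hormone ADIPOQ lay under the 25th percentile on every array (4.39 to 4.82). S100A4 and FABP4 were picked here after their values were seen. The part of these markers in the ANGPTL4 difference was not tested.

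**Figure D3:**
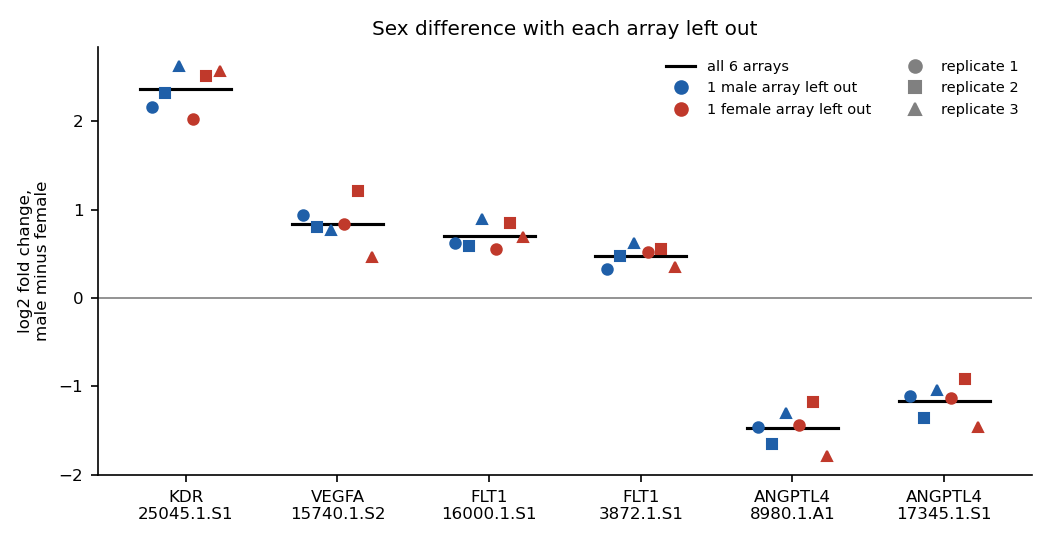
The log2 fold change (male minus female) of 6 member probe sets is plotted with all arrays (black line) and with each array left out (blue for a male, red for a female array, marker shape for the replicate). KDR stays between 2.02 and 2.62 and both ANGPTL4 probe sets stay below 0, while VEGFA 15740.1.S2 moves between 0.47 and 1.21.

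KDR and FLT1 are expressed by endothelial cells, so their values were set beside the endothelial markers of the same arrays. Of 44 listed markers 28 were measured and 24 of these averaged higher in males, against 58.3% of all 6760 annotated genes read by 1 probe set each. Their median log2 fold change was 0.89, against 0.05 over those genes. With the CV filter 6 markers were called higher, against 0.651% of the genes, over all probe sets 0 were called, and 13 had an unadjusted p under 0.05 from limma, against 17.5%. The 6 were CALCRL, LMO2, ICAM2, ADGRL4, ENTPD1 and ESAM, all on the study's list, with log2 fold changes of 1.42 to 1.88. Averaged over the 28 markers, arrays stood at 10.68, 10.38 and 9.69 in males and at 9.25, 9.93 and 9.12 in females. The sexes overlapped in this mean, with male replicate 3 below female replicate 2 (difference 0.81, exact permutation p = 0.2, two-sided). In bulk leaflet RNA, fewer cells of a type and less RNA per cell cannot be told apart.

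Defining endothelial genes had smaller differences than KDR. The adhesion molecule PECAM1 differed by 1.11 on the log2 scale (adjusted p = 0.144 from limma over all probe sets), the receptor TIE1 by 1.12 (0.166), the angiopoietin receptor TEK by 1.09 (0.214), the junction cadherin CDH5 by 0.90 (0.355) and the clotting factor VWF by 0.38 (0.787), and none passed. With PECAM1 and TIE1, the receptor modifier RAMP2 (0.69) and the protein C receptor PROCR (1.44) had the smallest p among the markers outside the study's list. The largest log2 fold change of the 28 markers was 1.88, at the ectonucleotidase ENTPD1.

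Relative to the marker mean of its own array, KDR (Ssc.25045.1.S1_at) stood at -1.15, -1.15 and -1.07 in males and at -3.18, -2.89 and -1.96 in females. The male arrays were nearly level with one another, at -1.12 ± 0.05 (SD, n = 3), and all stood above the females, at -2.68 ± 0.64 (SD, n = 3). The difference between the sexes was 1.55 on this scale, beside 2.37 without the markers (exact permutation p = 0.1, the smallest these arrays allow). Against the 20 markers outside the study's list, a reference added after the data were seen, it was 1.71, and it ranged from 1.30 to 1.91 over the alternatives. This KDR probe set became a member only through the study's list, chosen on these same arrays. A large difference relative to the markers was thus favored by that choice and is a description.

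FLT1 was set beside the same markers. Relative to the same marker mean, its log2 differences between the sexes were -0.11 at Ssc.16000.1.S1_at (exact permutation p = 0.6) and -0.34 at Ssc.3872.1.S1_at (exact permutation p = 0.2). VEGFA at Ssc.15740.1.S2_at gave 0.03 (exact permutation p = 1). ANGPTL4, whose sex difference runs opposite to that of the markers, differed by -2.28 and -1.98 at its 2 probe sets (exact permutation p = 0.1 for each). The part of the endothelial level in the differences of KDR and FLT1 was not tested beyond these values.

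**Figure D4:**
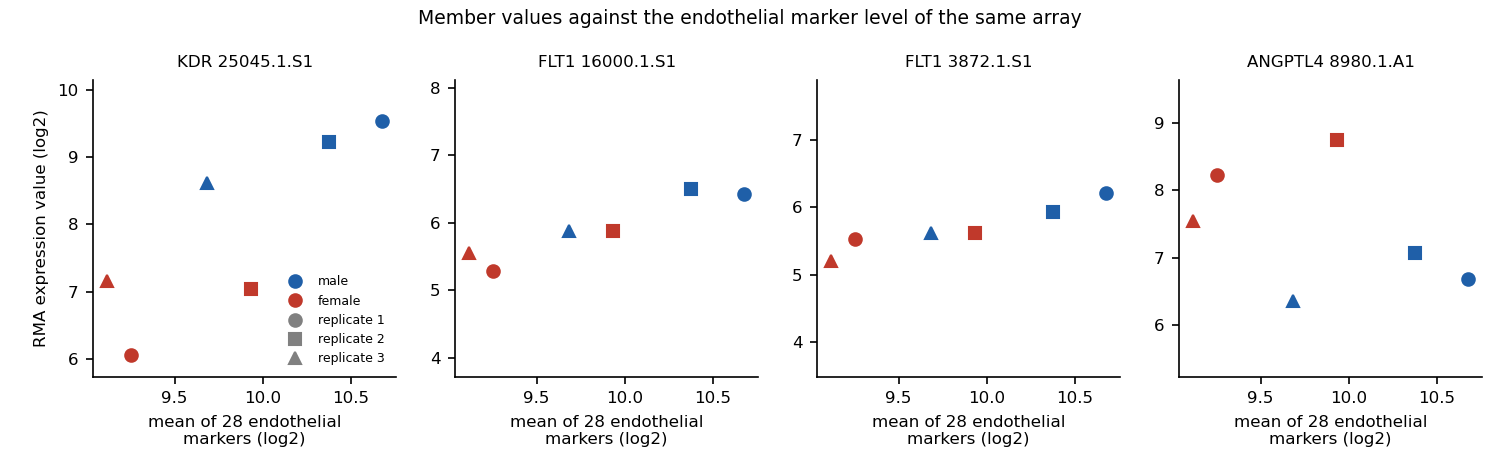
The log2 value of KDR, FLT1 (2 probe sets) and ANGPTL4 on each array is plotted against the mean log2 value of 28 endothelial markers on that array, with males in blue, females in red and marker shape for the replicate; each vertical axis spans the same number of log2 units. FLT1 3872.1.S1 keeps the order of the marker mean within each sex, and FLT1 16000.1.S1 departs from it in both. Male replicate 3 (marker mean 9.69) and female replicate 2 (9.93) are nearly level in FLT1 and apart in KDR and ANGPTL4.

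The genes around VEGF signaling were read from 7 lists with 122 measured genes of 226 listed, each gene by its probe set with the highest mean. None was called over all probe sets, where 0.304% of probe sets were called, or with the CV filter. All annotated genes read in this way had a median log2 fold change of 0.05, with 3942 of 6760 higher in males and 1181 at an unadjusted p under 0.05 from limma.

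Of the other ligands, co-receptors and modulators of ligand, 3 of 15 were measured. SDC2, a heparan sulfate proteoglycan that binds growth factors, read 11.07, 10.95 and 11.10 in males and 10.62, 10.64 and 10.001 in females, without overlap (log2 fold change 0.62, adjusted p = 0.187 from limma over all probe sets). The co-receptor NRP2 differed by 0.02 and the heparanase HPSE by -0.40.

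Downstream of the receptors, the male mean exceeded the female mean at 25 of 30 measured signaling genes, at a median difference of 0.20 (log2) and with 5 at an unadjusted p under 0.05 from limma. The list holds the endothelial markers CDH5 and NOS3, and without them 23 of 28 were higher, at a median of 0.19. The endothelial markers were higher on the same arrays, and their part in this lean was not tested. ITGB3, the β3 integrin that pairs with αv and joins KDR in signaling complexes, had the smallest p. It read 10.003, 9.92 and 9.28 in males and 8.65, 8.67 and 8.28 in females, without overlap, and its log2 fold change of 1.20 missed the threshold over all probe sets (adjusted p = 0.0812 from limma) and with the CV filter (adjusted p = 0.0527 from limma). Its partner ITGAV differed by -0.37, and was picked here after its value was seen. The small GTPase RHOA (0.40) and the kinase FYN (0.50) followed by p, both without overlap of the sexes.

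Genes that VEGF induces in endothelial cells went in both directions, with 11 of 17 higher in males and a median of 0.21 (0.11 over the 15 that are not also endothelial markers). RCAN1, the calcineurin inhibitor that is a common readout of KDR signaling, was lower in males. It read 13.40, 13.41 and 13.44 in males and 13.73, 13.74 and 13.88 in females, without overlap, and the log2 fold change of -0.37 did not pass (adjusted p = 0.161 from limma over all probe sets). The nuclear receptor NR4A2 was also lower (-0.43), while the adhesion molecule VCAM1 was higher (0.45). The log2 fold changes of these genes thus lay on both sides of 0. In bulk leaflet RNA they are not read in endothelial cells alone, and whether they follow KDR was not tested.

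Of the angiopoietins, Tie receptors and angiopoietin-like proteins, 6 of 12 were measured. TIE1 and TEK, which also stand among the endothelial markers, differed by 1.12 and 1.09. No other measured member of the ANGPTL4 family followed ANGPTL4 past a test, with ANGPTL5 at -0.68 (adjusted p = 0.372 from limma over all probe sets) and ANGPTL2 at 0.02.

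Regulators and metabolic targets linked to ANGPTL4 were split, with 11 of 24 higher in males and a median of -0.05. PER1, a clock gene induced by glucocorticoids, read 11.86, 12.12 and 12.13 in males and 12.51, 12.53 and 12.67 in females, lower in males without overlap (log2 fold change -0.53, adjusted p = 0.125 from limma over all probe sets). The lipid droplet protein PLIN2, a target of the fatty acid receptors that also induce ANGPTL4, differed in the same direction. Its values were 8.21, 8.66 and 9.23 in males and 9.77, 9.35 and 9.58 in females, again without overlap (log2 fold change -0.87, adjusted p = 0.183 from limma over all probe sets). The mitochondrial carrier UCP2, another target of these receptors, went the other way, with 8.99, 9.11 and 8.76 in males and 8.40, 7.86 and 7.13 in females (log2 fold change 1.15, adjusted p = 0.159 from limma over all probe sets).

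The hypoxia response, which induces both VEGFA and ANGPTL4, was balanced, with 11 of 22 measured genes higher and 11 lower in males and a median of -0.0047. The lactate dehydrogenase LDHA was higher in males by 0.45, whereas the carbonic anhydrase CA9 (-0.41) and the glucose transporter SLC2A1 (-0.45) were lower, and none passed (adjusted p from 0.151 to 0.260 from limma over all probe sets).

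Among 23 measured genes of other angiogenic and anti-angiogenic factors 11 were higher in males, and the median was -0.03. The Notch ligand JAG1 was higher by 0.78, and the angiogenesis inhibitors THBS2 and THBS1 had log2 fold changes of -0.82 and -0.51. THBS2 read 12.05, 12.45 and 12.98 in males and 13.30, 13.38 and 13.26 in females, without overlap, and neither it nor the other genes named here passed (adjusted p from 0.167 to 0.197 from limma over all probe sets). Probe sets of one gene differed among the genes of these lists and the endothelial markers too. Other probe sets had log2 fold changes down to 0.08 for TEK, 0.0093 for VWF and -0.26 for ESAM. They reached up to -0.06 for PER1, 0.02 for CA9, 0.16 for HPSE and 1.03 for SDC2.

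**Figure D5:**
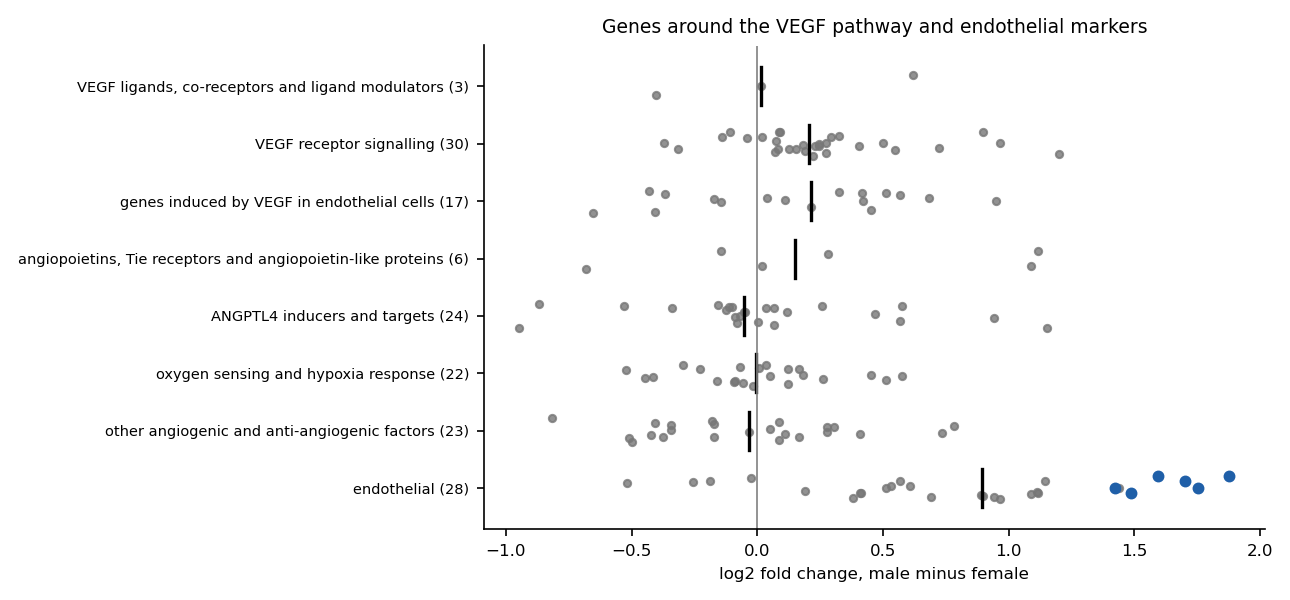
Each point is the log2 fold change (male minus female) of 1 gene in 7 lists around VEGF and ANGPTL4 and in the endothelial marker list, with the number of measured genes in brackets, black bars at the list medians and blue points for genes called with the CV filter. Blue points appear in the endothelial list, whose median is 0.89, while the medians of the other lists lie between -0.05 and 0.21.

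The arrays were also searched for genes whose values ran most like those of the members, over 6105 annotated genes of a mean above the median of the array. The measure was Pearson's r over the 6 arrays, and it is a description of these libraries, since 6 points allow many high values. For KDR (Ssc.25045.1.S1_at) the 5 most alike were NCAPH2 (0.994), TACC2 (0.991), SPTSSA (0.989), STC1 (0.986) and LRRFIP1 (0.986), and 1.20% of the genes searched exceeded 0.95. STC1, the secreted glycoprotein stanniocalcin, was the one with a difference as large as that of KDR (log2 fold change 2.44), while the other 4 lay between 0.20 and 0.57. After the mean of each sex was subtracted, the 5 were SS18, CLEC3B, MTMR11, MRPS12 and MAGOH, none of them among the first 5.

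For ANGPTL4 (Ssc.8980.1.A1_at) the 5 were LOC100511937 (0.991), ALDH9A1 (0.985), DDX51 (0.983), LOC100622859 (0.982) and VLDLR (0.979), and 0.426% of the genes searched exceeded 0.95. VLDLR, a receptor for triglyceride-rich lipoproteins, was lower in males with a log2 fold change of -0.87. Within the sexes PPA1, UBN1, GSTM3, SEC24D and DNASE1L1 came first. VEGFA (Ssc.15740.1.S2_at) ran most like MX1, CST3, LOC100156879, SEPT7 and RSF1, VEGFB like VWA1, TMED3, SRP68, CEBPZOS and ERP29, and FLT1 (Ssc.16000.1.S1_at) like TIMM8B, NEK3, DDA1, LYAR and PLN, all with r of at least 0.97.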

How the data were processed

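Total RNA of scraped leaflets (400 ng per sample) was hybridized to 6 arrays. The authors ran RMA in R 2.12.0 on their raw scans and deposited the log2 values, which were used as given. Precision is limited by the number of arrays. Males were set against females without covariates by lmFit and eBayes of limma 3.58.1 (R 4.3.3, statmod 1.5.0) over 23999 probe sets, after removal of 124 controls, and over the 2412 probe sets kept by the CV filter. The methods name a CV filter without its share and describe it as removing values unlike between replicates, whereas here the highest CV over all arrays was retained, with a share of 10% taken from an earlier analysis of these data. Exact permutation tests, two-sided, used scipy 1.17.1 in Python 3.11.15, and figures matplotlib 3.10.9. The scripts were tested on simulated data.

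The members, gene lists and tests were chosen with earlier results of these data known. The annotation names 1 gene for 10069 probe sets, several for 198 and none for 13732. A gene of a list is read by its probe set with the highest mean. Named are all members, the called genes of each pathway list or else the 3 with the smallest p, 4 endothelial markers outside the study's list with the smallest p beside 5 defining ones, and the 5 genes most like a member, other names being said to be chosen later. Marker lists for lymphatic endothelium, smooth muscle and pericytes, macrophages, lymphocytes, adipocytes and erythroid cells were read too, and their values close the text. Alternatives were other shares of the CV filter, no or another filter on low values, median-centred arrays, an intensity trend in the variance, a replicate block, other marker summaries and leaving out each array. Each array is another pig.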

Additional observations from a re-analysis of the deposited data

How the results depend on the processing

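Of 255 values from limma under alternatives 226 kept their direction and side of the threshold, or for counts stayed within 1.5 times. Values with an exact permutation test, whose smallest p is 0.1, could not change sides and are left out of this count. Member probe sets called over all probe sets numbered 0, 1 with an intensity trend, 1 with median-centred arrays (KDR each time), 2 with the replicate block (both of ANGPTL4) and 0 to 1 on leaving out an array (KDR, without male replicate 3). With the CV filter they numbered 2, 3 with the replicate block (KDR and both of ANGPTL4), and 1 to 2 on leaving out an array. Pathway genes called numbered 0 over all probe sets, 1 with the replicate block (ITGB3) and 0 to 4 on leaving out an array: ITGB3, TEK, THBS2 and TIE1 without male replicate 3, and CXCR4 without female replicate 1. With the CV filter they numbered 0, 1 with a share of 20% (ITGB3), 1 with the replicate block (ITGB3), and 0 to 4 on leaving out an array, with PPARGC1A in place of THBS2. Small differences turned on leaving out 1 array: VEGFB ranged from -0.25 to 0.0023 (without male replicate 1), VEGFA Ssc.15740.2.A1_at from -0.10 to 0.017 (without female replicate 3), and that between the KDR probe sets Ssc.15999.1.A1_at and Ssc.15999.1.S1_at ranged from -0.18 to 0.046 (without female replicate 1). Why values moved was not tested beyond the arrays left out.

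Deviations of same-numbered arrays correlated at r of -0.10, 0.01 and 0.27, and those of unlike-numbered male and female arrays at -0.22 to 0.21. The highest value was that of the arrays numbered 3. Since the other same-numbered values lay within the range of the unlike-numbered ones, the replicate numbers were not taken as pairs. With the replicate block the adjusted p of ANGPTL4 was 0.0286 (Ssc.8980.1.A1_at) and 0.0431 (Ssc.17345.1.S1_at) over all probe sets, and 0.0452 for the second with the CV filter, from limma.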

Other observations

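Of the other cell types, macrophage markers had 7 of 10 measured genes higher in males (median log2 fold change 0.27), and lymphocyte markers 5 of 8 (0.07). Smooth muscle and pericyte markers were at a median of 0.01, with 5 of 9 higher. The pericyte gene RGS5, picked here after its value was seen, differed by 2.56 on the log2 scale. It read 9.18, 10.20 and 9.13 in males and 6.86, 8.76 and 5.21 in females. RGS5 did not pass over all probe sets (adjusted p = 0.204 from limma) and narrowly failed with the CV filter (adjusted p = 0.0517 from limma). Lymphatic endothelial markers had a median of 0.02 over 3 genes, erythroid markers 0.00 over 3 genes, and cardiomyocyte markers -0.05 over 9 genes. Adipocyte markers, which include targets shared with the ANGPTL4 list, had a median of -0.12 with 1 of 5 higher, and interstitial cell and fibroblast markers -0.29 with 2 of 16 higher. Read by the probe set with the highest mean, none of the genes in these lists was called in either comparison. RGS5 and the cardiomyocyte gene PLN are nevertheless on the study's list of significant genes. PLN differed by 1.32 at the probe set read here and by 1.77 at another.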
